A study of Zea mays with 48 samples.

Results

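The gigantea homologs gi1 (GRMZM2G107101) and gi2 (GRMZM5G844173) are clock genes of maize, and ZmCCA1 binding at them was followed through the day. Peaks were taken where the deposited lists assigned them to either gene or where a peak overlapped the coordinates of either gene. This gave 7 peaks of 10136 in all lists, 3 at gi1 and 4 at gi2, and 2 genes of the 4321 to which peaks were assigned. No peak without an assigned gene, or assigned to another gene, overlapped gi1 or gi2.

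ChIP-seq libraries came from aerial tissue of seedlings at 5 days after planting, grown under a long-day light cycle. The plants were of 4 genotypes, 2 inbreds (B73 and Mo17) and the F1 hybrids of both directions of cross (BM and MB), and the labels name no transgene or treatment in any of them. Tissue was taken at ZT3, ZT9 and ZT15, where ZT counts hours after dawn, with 2 biological replicates for each genotype and time point, which made 24 ChIP and 24 input libraries. The authors merged peaks over the 3 time points into 1 list for each genotype, so that a peak has a log2(ChIP/Input) value at every time point even if it was called at 1 of them. This value is the log2 ratio of precipitated to input DNA over the peak. The B73 list held 3364 peaks, that of Mo17 2102, that of BM 2796 and that of MB 1874. They give 1 value for each peak and time point and no replicate values, so that no value has an error, no difference could be tested, and the depth behind a peak is unknown. The precipitating antibody was raised against the MYB DNA-binding domain of ZmCCA1 proteins and can see ZmCCA1b as well as a ZmCCA1a protein that carries this domain, so the signal cannot be told apart between both proteins. Reads of B73 were aligned to the B73 genome, reads of Mo17 to a Mo17 assembly guided by B73, and reads of the hybrids to both, which separates the lists by reference as well as by genotype. Only uniquely mapped read pairs were kept, so a stretch identical in gi1 and gi2 could not contribute to either, and the identity of the genes was not determined here. The lists have no marker against which the tissue label could be checked.

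CCA1 is a MYB transcription factor of the morning arm of the plant circadian clock. In Arabidopsis it accumulates around dawn and represses evening genes, GIGANTEA among them, through the evening element and the related CCA1-binding site. GIGANTEA is a large nuclear and cytosolic protein that peaks late in the day, stabilises the F-box protein ZEITLUPE in blue light and links the clock to photoperiodic flowering. Maize is an ancient tetraploid and keeps a pair of homologs.

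The study designed oligonucleotides for these genes. They are shown because they hold the element for which binding was assayed in vitro and the primers listed for ChIP-qPCR. The ChIP-qPCR results that the paper describes are for other genes. The gi1 probe for gel-shift assays was 28 bases long and held the CCA1-binding site AAAAATCT from position 11, counted from its 5′ end and written in capitals. In the mutated probe the substitutions T16G, C17A and T18G broke the site, and the capitals mark these bases. A further probe held neither the CCA1-binding site nor the evening element AAATATCT on either strand. The paper reports that recombinant ZmCCA1b bound the gi1 fragment in vitro. It detected no binding with the mutated probe or the probe without the element.
gi1 probe: gcatcgcggaAAAAATCTttttctcgcc
gi1 probe, mutated: gcatcgcggaaaaaaGAGttttctcgcc
gi1 probe without the element: gtccgaggctaggctcgggtgaagcgtg
gi1 forward primer: gaacttccatttcagccatcc
gi1 reverse primer: gaaataatcaaggtgacggg
gi2 forward primer: cagtgttgattacaggtgctc
gi2 reverse primer: gattctgacatgcttggtagc
Of the 5 forward probes in the study's list, those for gi1 and 1 other gene held the CCA1-binding site, 3 held the evening element and none held both. None of the 20 mutated or control oligonucleotides held either motif. The ChIP-qPCR primers held neither motif, which concerns these letters alone. The positions of the probes and primers relative to the peaks were not determined here, because no genome of the build used by the files was given.

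Both genes were listed as bound in Mo17 and BM, gi2 alone was listed in MB, and neither was listed in B73. gi1 lies on chromosome 8 of AGPv2 from 21098977 to 21107262 on the minus strand, over 8286 bp. gi2 lies on chromosome 3 from 9303333 to 9314353 on the plus strand, over 11021 bp. For gi1 there was 1 peak in Mo17, 2 in BM and 0 in B73 and MB. For gi2 there was 1 peak in Mo17, 2 in BM, 1 in MB and 0 in B73. Extending each gene by 2 kb or 10 kb on either side added no peak in any list. A gene without a listed peak has no value there, so that absence from a list is not a measured level of 0.

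A missing B73 peak was common among bound genes. Of the genes with a peak in Mo17, 674 of 1522 (44.3%) had none in B73, and the share was 45.6% for BM and 39.9% for MB. The Mo17, BM and MB set of gi2 was met by 48 genes without a B73 peak, and the Mo17 and BM set of gi1 by 118 genes with a peak in no other list.

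All 7 peaks lay within the gene models, downstream of the annotated start, and none overlapped the start. In all lists most peaks lay within a gene, with 65.3% in Mo17, 67.0% in MB, 71.3% in BM and 73.1% in B73, so an intragenic place is the usual one here. Whether a peak covered an exon or an intron was not determined.

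At gi1 the Mo17 peak was broad and held BM peak 1 whole and BM peak 2 in part. It ran from 21102387 to 21106200, 1062 to 4875 bp from the start of the gene in the direction of its strand, and its 3814 bp covered 46.0% of the gene. By width it ranked 38th of the 2102 peaks in Mo17. BM peak 1 ran from 21105003 to 21105939, 1323 to 2259 bp from the start, and all of its 937 bp lay within the Mo17 peak. BM peak 2 ran from 21100525 to 21103277, 3985 to 6737 bp from the start, and shared 891 bp with the Mo17 peak, or 32.4% of the BM peak and 23.4% of the Mo17 peak. The median width was 980.5 bp in Mo17 and 1037.5 bp in BM, so the gi1 Mo17 peak and BM peak 2 were wide for their lists and BM peak 1 was not.

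At gi2 the peaks of Mo17 and BM lay in the first part of the gene and the MB peak lay in its middle. The Mo17 peak ran from 9304738 to 9306349, 1405 to 3016 bp from the start. BM peak 1 ran from 9303737 to 9304651, 404 to 1318 bp from the start, and ended 86 bp short of the Mo17 peak. BM peak 2 ran from 9306137 to 9306922, 2804 to 3589 bp from the start, and shared 213 bp with the Mo17 peak, or 27.1% of the BM peak and 13.2% of the Mo17 peak. The 2 BM peaks thus flanked most of the region listed for Mo17.

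The MB peak overlapped no other gi2 peak. It ran from 9308920 to 9310370, 5587 to 7037 bp from the start, with 1997 bp between it and BM peak 2 and 2570 bp between it and the Mo17 peak. With its midpoint at 57.3% of the gene, it was beyond the median midpoint of intragenic peaks in MB, 39.5%, whereas the gi2 peaks of Mo17 and BM had midpoints at 20.1%, 7.81% and 29.0%. The reciprocal hybrids, which carry the same parental genomes, were therefore listed at separate stretches of gi2. No difference in level is therefore taken between the MB peak and the peaks of the other lists. Where the time point of the highest value or the likeness between genes is taken over lists, MB enters with a separate stretch of gi2.

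**Figure D1:**
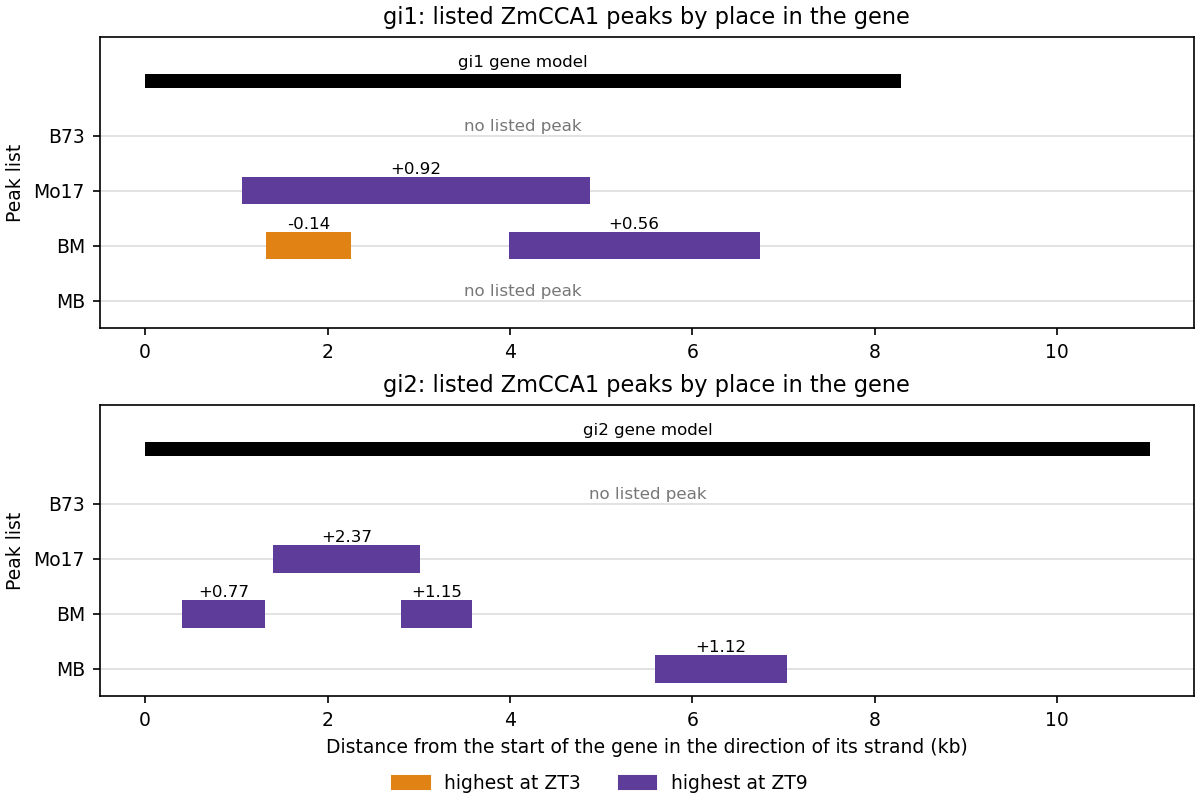
Listed ZmCCA1 peaks along gi1 and gi2 (horizontal axis, distance from the start of the gene in its own direction, in kb) in each of the 4 lists (rows), with the gene model as a black bar, the colour giving the time point of the highest value and the number above a peak its log2(ChIP/Input) at ZT9 minus ZT3. The 7 peaks lie within the genes, B73 has none, and the MB peak of gi2 stands 1997 bp beyond the nearest BM peak.

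ZmCCA1 binding at gi2 was highest at ZT9 in every list that held the gene. In Mo17 the log2(ChIP/Input) of the gi2 peak was 0.17 at ZT3, 2.54 at ZT9 and 0.33 at ZT15. The value was thus high at 1 time point and close to that of the input at the others. The difference between ZT9 and ZT3 was 2.37, a 5.15-fold change of the ChIP to input ratio.

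Both BM peaks of gi2 were also highest at ZT9. BM peak 1 had log2(ChIP/Input) values of 1.12, 1.89 and 0.42 at ZT3, ZT9 and ZT15, and BM peak 2 had 0.84, 1.99 and 0.63. The ZT9 minus ZT3 differences were 0.77 and 1.15, or 1.70-fold and 2.22-fold. In MB the gi2 peak had 0.19, 1.31 and 0.35, which gave a difference of 1.12 or 2.17-fold. The MB value at ZT9 thus stood above those at ZT3 and ZT15, which were both low.

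At gi1 the ZT9 minus ZT3 difference was smaller than at gi2 in the same list, and in BM the day course differed along the gene. The Mo17 peak had log2(ChIP/Input) values of 0.76, 1.68 and 0.22 from ZT3 to ZT15, with a ZT9 minus ZT3 difference of 0.92 or 1.89-fold. BM peak 2, in the latter part of the gene, had 1.39, 1.95 and 0.50 and a difference of 0.56 or 1.48-fold. BM peak 1, closer to the start, had 1.85, 1.71 and 0.93 and was the only one of the 7 peaks with its highest value at ZT3. Its lead over ZT9 was 0.14, and no replicate spread is known against which this could be set.

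Counted by time point, 4 of 4 gi2 peaks and 2 of 3 gi1 peaks were highest at ZT9. Over all peaks this share was 48.4% in Mo17, 31.1% in BM and 35.0% in MB. A ZT9 minus ZT3 difference of at least 1, which is a doubling, was reached by 3 of the 7 peaks, all of them at gi2, against 20.9% of all peaks in Mo17, 11.0% in BM and 17.7% in MB. Peaks of 1 gene share their chromatin and libraries, so these counts describe 2 genes and not 7 independent sites.

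**Figure D2:**
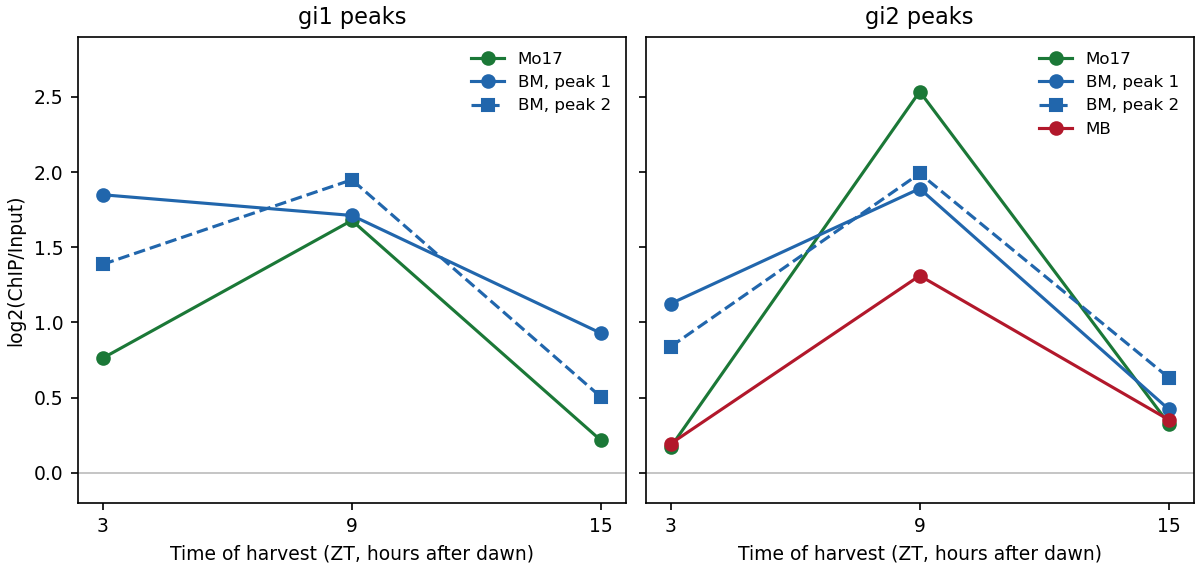
log2(ChIP/Input) of each gi1 peak (left) and gi2 peak (right) against the time of harvest in hours after dawn, with a line for each peak and the colour giving the list. Points are single combined values without error; 6 of the 7 lines are highest at ZT9, and the gi2 peak of Mo17 rises from 0.17 to 2.54.

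ZT9 exceeded ZT15 at all 7 peaks, by 0.78 to 1.46 at gi1 and by 0.96 to 2.21 at gi2. This was the usual order, found in 65.5% of all peaks in Mo17, 78.0% in BM and 64.5% in MB. The lowest value fell at ZT15 in the 3 gi1 peaks and in both BM peaks of gi2, and so it did in 69.5% of all BM peaks and 43.8% of all Mo17 peaks (50.6% in MB). The gi2 peaks of Mo17 and MB had their lowest value at ZT3, as had 33.8% of all peaks in Mo17 and 20.8% in MB (11.1% in BM).

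Within its own list, the gi2 peak of Mo17 stood near the upper end of the ZT9 minus ZT3 differences. It ranked 29th of 2102 peaks, in the top 1.38%, with the next larger and next smaller differences at 2.37 and 2.35. The median difference in Mo17 was 0.20, the 90th percentile 1.40 and the maximum 3.24. Its ZT9 value ranked 73rd and its ZT3 value 1933rd, so that the peak combined a high ZT9 value with a low ZT3 value.

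The other gi2 peaks also stood above the median of their lists but further from the top. BM peak 2 ranked 238th of 2796 (top 8.51%), BM peak 1 ranked 431st (top 15.4%) and the MB peak 285th of 1874 (top 15.2%). The median differences were -0.40 in BM and -0.25 in MB, where most peaks had more signal at ZT3 than at ZT9. The MB peak had a low value at ZT3, where it ranked 1710th of 1874, and its ZT9 value ranked 1076th, below the median of the list. BM peaks 2 and 1 ranked 464th and 649th at ZT9.

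The gi1 peaks were closer to the bulk of their lists. The Mo17 peak ranked 491st of 2102 (top 23.4%), BM peak 2 ranked 537th of 2796 (top 19.2%) and BM peak 1 ranked 1077th (top 38.5%). BM peak 1 stood above the median of its list although its difference was -0.14, because the BM differences centre below 0. After the median of its list was subtracted from each time point, its ZT9 minus ZT3 difference was 0.22 and all 3 gi1 peaks were highest at ZT9.

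**Figure D3:**
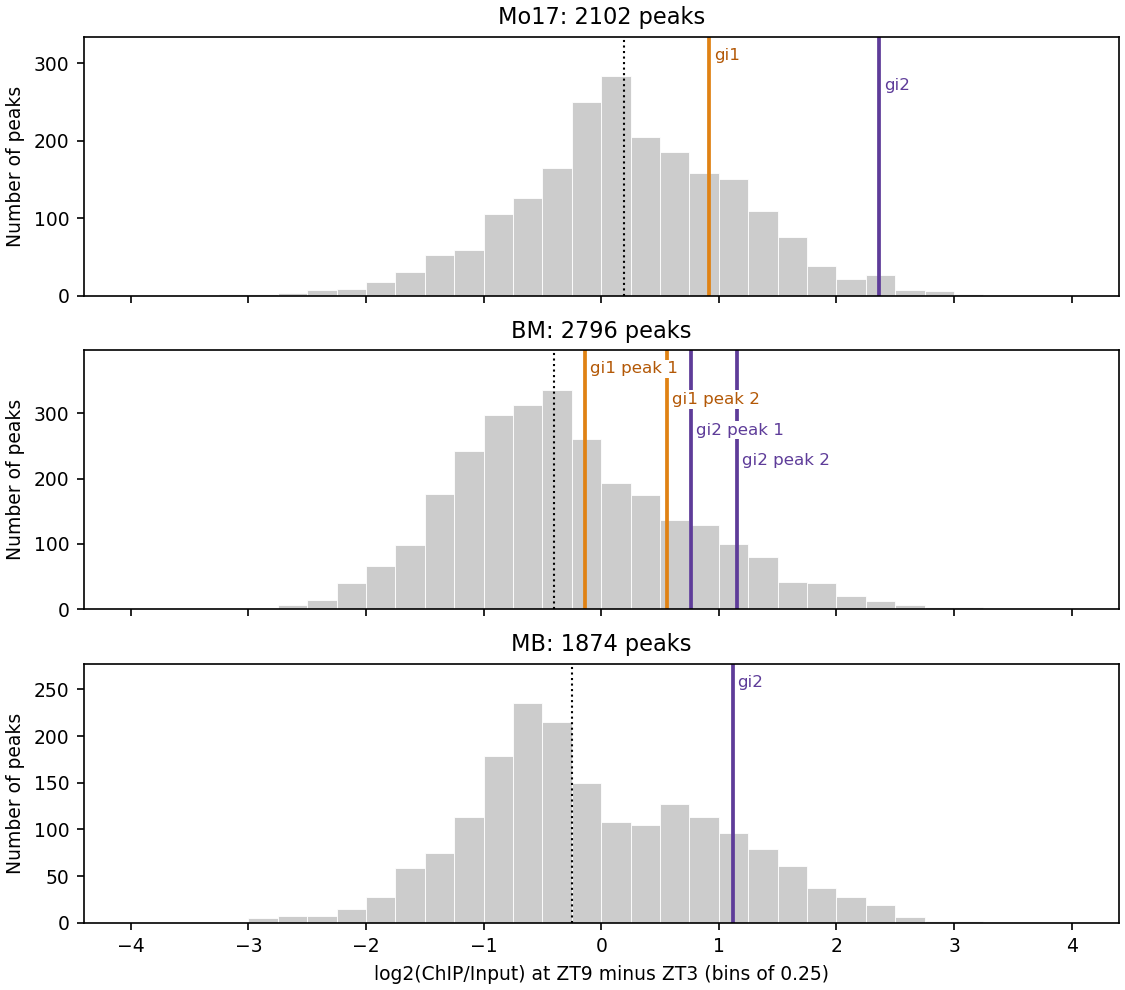
Number of peaks (vertical axis) by log2(ChIP/Input) at ZT9 minus ZT3 (horizontal axis, bins of 0.25) in the Mo17, BM and MB lists, with the list median as a dotted line and each gi1 (orange) and gi2 (purple) peak as a solid line. The gi2 peak of Mo17 at 2.37 stands in the upper tail, and every gi1 and gi2 peak lies to the right of its list's median.

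Peak width moved with these ranks. The 100 peaks with the largest differences had a median width of 638.5 bp in BM, 653 bp in Mo17 and 660.5 bp in MB, below the medians of 1037.5, 980.5 and 974 bp over all peaks. The gi2 peak of Mo17 was 1612 bp wide. Among the 798 Mo17 peaks between 1.5 times narrower and 1.5 times wider than it, no peak had a larger difference. The gi1 peak of Mo17 had the third largest of 62 such peaks and gi1 BM peak 2 the 17th of 366, top 4.84% and 4.64%, while gi2 BM peak 1 fell back to the top 18.2% and gi2 BM peak 2 to the top 11.7%. This comparison was chosen after seeing the data, and the part of width in the ranks was not tested. The peaks with the largest differences in each list were at other genes, GRMZM5G851815 in B73 (3.05, 474 bp wide), GRMZM2G019879 in BM (3.41, 682 bp) and GRMZM2G164669 in MB (3.53, 985 bp), and in Mo17 at a peak with no assigned gene (3.24, 484 bp).

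BM was the list in which both genes had a pair of peaks, which allowed a comparison within the same libraries. At both genes the peak closer to the start had the higher ZT3 value and the lower ZT9 value. The ZT3 value of peak 1 exceeded that of peak 2 by 0.46 at gi1 and by 0.29 at gi2, and peak 1 minus peak 2 at ZT9 was -0.24 and -0.10. For the ZT9 minus ZT3 difference, peak 1 minus peak 2 was -0.70 at gi1 and -0.39 at gi2. Between the peaks lay 1725 bp at gi1 and 1485 bp at gi2.

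BM had 214 genes with exactly 2 peaks that overlapped the gene. In 66 of these genes (30.8%), gi1 and gi2 among them, the first peak was both higher at ZT3 and lower at ZT9. It was higher at ZT3 in 130 (60.7%) and had the smaller difference in 110 (51.4%), which is close to an even split. The 2 peaks had their highest value at different time points in 96 genes (44.9%), as at gi1, and ZT3 followed by ZT9 from the start onwards was found in 45 (21.0%). As at gi2, both peaks were highest at ZT9 in 25 genes (11.7%).

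The hybrid BM and the inbred Mo17 could be compared where their peaks overlapped, which was the case for 3 pairs of peaks at gi1 and gi2 among 904 pairs in all. Over the 904 pairs BM was higher than Mo17 by a median of 0.21 at ZT3 and lower at ZT9 and ZT15, with medians of -0.23 and -0.47. Since overlapping peaks cover different lengths and were aligned to different references, such a difference is also a difference between regions.

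BM peak 2 of gi2 was higher than the Mo17 peak by 0.67 at ZT3 (percentile 75.8 of the 904 pairs), differed by -0.54 at ZT9 (percentile 27.7) and was higher by 0.31 at ZT15 (percentile 88.3). The ZT9 minus ZT3 difference was lower in BM, with a value of -1.21 at percentile 21.0, where the median was -0.44. The gi2 pair moved in the direction of the median at ZT3 and ZT9 and against it at ZT15, where BM exceeded Mo17 in 226 of all 904 pairs.

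At gi1, BM exceeded Mo17 at every time point in both overlapping pairs. Over the 904 pairs, BM exceeded Mo17 in 68.0% at ZT3, 32.9% at ZT9 and 25% at ZT15. The share of pairs with BM higher at every time point was not computed, so this order does not set gi1 apart. BM peak 1 was higher by 1.09 at ZT3, 0.03 at ZT9 and 0.71 at ZT15, at percentiles 88.5, 69.1 and 96.2. BM peak 2 was higher by 0.62, 0.27 and 0.29, at percentiles 73.1, 81.4 and 87.6. Both pairs share the same wide Mo17 peak and are not independent of each other.

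**Figure D4:**
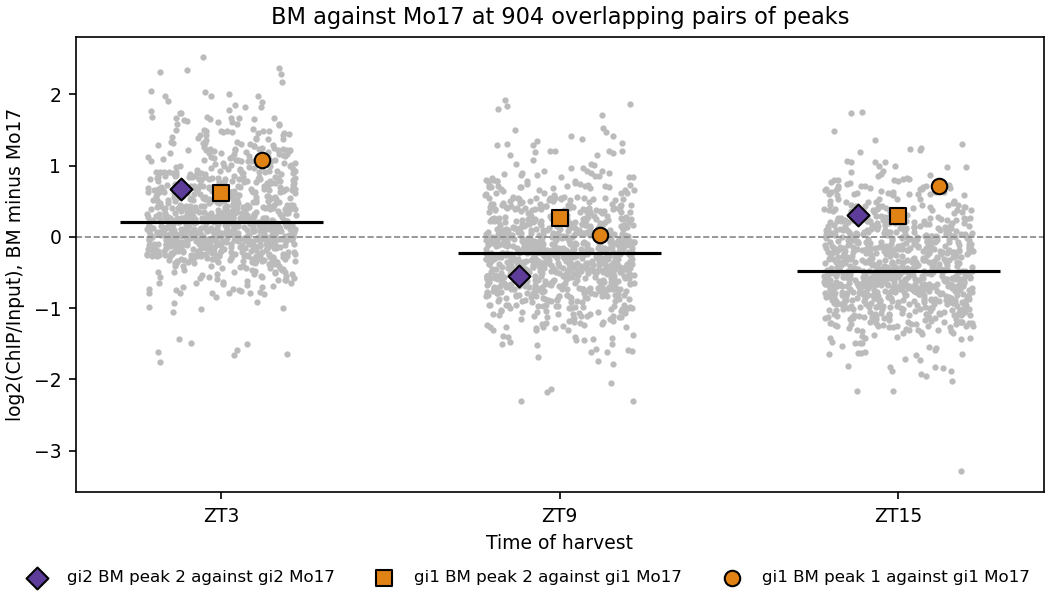
log2(ChIP/Input) in BM minus Mo17 (vertical axis) at ZT3, ZT9 and ZT15 for 904 pairs of overlapping peaks (grey points, spread sideways at random, with their median as a black line) and for the 3 pairs at gi1 and gi2 (large symbols). At ZT15 the gi1 and gi2 pairs lie at 0.29 to 0.71, above the median of -0.47.

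No other part of the surroundings of gi1 and gi2 was listed. The nearest listed peak lay 717.885 kb from gi1, at GRMZM2G032252 in B73, and 236.353 kb from gi2, at GRMZM2G099466 in Mo17. For comparison, adjacent peaks were a median of 273 kb apart in B73, 323 kb in BM, 418 kb in Mo17 and 533 kb in MB. In B73, where gi2 had no peak, the gene on its right, towards higher coordinates, GRMZM2G363535, was listed and was highest at ZT9, with 0.85 at ZT3, 2.30 at ZT9 and 1.25 at ZT15. The same neighbour had 2.101, 1.68 and 0.37 in BM, highest at ZT3, and 0.04, 1.58 and 0.11 in MB, highest at ZT9. The BM peaks of gi2 were highest at ZT9, so gi2 and this neighbour were highest at different time points in BM. The BM neighbour on the left, GRMZM2G048012, had 1.14, 1.71 and 0.37 and was highest at ZT9, as gi2 was.

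The remaining neighbours were GRMZM2G179720 on the left of gi1 in B73 and BM, GRMZM2G479930 on its left in MB, GRMZM2G032190 and GRMZM2G030695 around it in Mo17, and GRMZM2G158177 and GRMZM2G032252 on its right in BM and MB. Around gi2 they were GRMZM2G111846 on the left in B73, GRMZM2G048012 on the left in MB, and GRMZM2G083518 on the right in Mo17.

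Taken over lists, a gene was counted only if it was highest at ZT9 in every list used, so shares fall as lists are added. Over all peaks, the share highest at ZT9 was 48.4% in Mo17, 31.1% in BM and 35.0% in MB. What these would give together by chance was not computed, so the shares over lists do not set gi1 or gi2 apart. With the highest value over its peaks at each time point, gi1 was highest at ZT9 in Mo17 and BM, as were 104 of the 761 genes with peaks in both (13.7%). In BM this set a ZT3 value of 1.85 from gi1 peak 1 against a ZT9 value of 1.95 from gi1 peak 2. These are separate stretches with close values, and BM peak 1 itself was highest at ZT3. gi2 was highest at ZT9 in Mo17, BM and MB, as were 21 of the 466 genes with peaks in these lists (4.51%), and 3 of the 48 among them without a B73 peak (6.25%).

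The genes with a day course most like that of gi2 were GRMZM2G076676, GRMZM5G891159, GRMZM2G153722, GRMZM2G413069 and GRMZM2G025531. Likeness was the Euclidean distance over 9 values, 3 time points in Mo17, BM and MB, centred within each genotype. Their distances were 1.10 to 1.26 against a median of 2.37 over 465 genes, and GRMZM5G891159 (1.12) likewise had no peak in B73. For gi1, with 6 values in Mo17 and BM, the nearest of 760 genes were GRMZM2G076730 (0.150), GRMZM2G014400 (0.201), GRMZM2G158575 (0.253), GRMZM2G158452 (0.264) and GRMZM2G091583 (0.274), the last of which was absent from B73 and MB as was gi1. The distance to the nearest gene was thus smaller for gi1 than for gi2, over fewer values. Not all of these genes were highest at ZT9 in every list used. In BM, GRMZM2G153722 had 2.27 at ZT3 and 1.895 at ZT9, and GRMZM2G091583 had 1.99 and 1.94. The others named were highest at ZT9 in the lists used. The points of a gene share libraries and time points, and with so few of them likeness is a description only.

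Of the other clock genes looked up, 1 had a listed peak. A search of gene annotations for further clock genes added none to the 5 named by the paper. It reached only 2828 of the 4321 assigned gene IDs, so clock homologs among the rest could have been missed. The genes looked up were ZmCCA1a (GRMZM2G474769), the MYB gene model upstream of it (GRMZM2G175265), ZmCCA1b (GRMZM2G014902), the pseudo-response regulator gene ZmPRR59 (GRMZM2G135446) and ZmTOC1a (GRMZM2G020081), a homolog of the evening repressor TOC1. The 1 of these 5 genes with a peak was GRMZM2G175265 on chromosome 10, listed in Mo17 alone, with log2(ChIP/Input) values of 1.34, -0.09 and -1.05 from ZT3 to ZT15. Its ZT9 minus ZT3 difference of -1.43 was opposite in sign to the 0.92 and 2.37 of gi1 and gi2 in the same list. A gene without a listed peak is not thereby shown to be unbound. In the paper's gel shifts ZmCCA1b bound promoter fragments of ZmTOC1a and ZmPRR59, as it did that of gi1. The paper also reports ChIP-seq binding at putative clock homologs. For gi1 it describes an earlier expression peak in the hybrids that correlated with a temporal shift of ZmCCA1 binding. That shift was not tested here, since the lists hold no replicate values and MB has no listed gi1 peak.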

How the data were processed

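The labels gave 48 libraries in 24 groups of genotype, material and time point. By the study's methods, the authors aligned trimmed reads to AGPv2 (B73), a B73-guided Mo17 assembly or both (hybrids), kept unique concordant pairs without duplicates, down-sampled the libraries, called peaks against input with MACS2 2.0.1 (the version is also in the submitters' processing notes), retained those found in both replicates and joined them over time points. The deposited values are the authors' log2 of ChIP over input, 1 for each peak and time point. How replicates were combined, and whether Mo17 coordinates follow B73 numbering, is not given in the sources used here. The files' positions were used as written, with width counted from start to stop inclusive.

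Ranks were computed over all peaks of a list, the fold as 2 to the power of the log2 difference. The time point of the highest value was taken for each peak, and 1 Mo17 peak with a tie was left out. Pairs of peaks shared at least 1 bp. Genes named were gi1, gi2, the clock genes listed, the 5 most like, the nearest peaks and the top peak of each list. The members and lists were chosen with earlier results of these data known, and the likeness to gi1, comparisons of like width and every alternative for gi1 ranks after seeing the data. Alternatives comprised centring, other differences, subsets of peaks and other overlaps. Ranks carry 95% Wilson intervals, which cover counting only. No test was made. RefSeq's maize gene table, of another assembly, gave names for 2828 of 4321 gene IDs and no coordinates. Functions were tested on simulated lists. Sequences are from the study's oligonucleotide tables. Python 3.11.15, numpy 2.4.6, pandas 2.3.3, scipy 1.17.1 and matplotlib 3.10.9 were used.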

Additional observations from a re-analysis of the deposited data

How the results depend on the processing

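The lists hold 1 combined value for each peak and time point, so depth, replicate spread and tests are beyond them. No paired analysis was possible because the lists hold no replicate values, and leaving out a replicate could not be done. Values were taken as moved beyond 1.5 times for a difference, and outside the 95% Wilson interval for a place in the list. In each case below the cause was not tested. Centring on list medians turned gi1 BM peak 1 from -0.14 to 0.22 and gave 0.57 for gi1 Mo17 and 0.92 for gi1 BM peak 2. ZT9 minus the mean of ZT3 and ZT15 gave 0.32 for gi1 BM peak 1, a turn of its sign, and 1.004 for gi1 BM peak 2. By this measure the places were the top 14.7% (gi1 Mo17), 35.6% and 14.3% (gi1 BM peaks 1 and 2), 0.951% (gi2 Mo17), 11.6% (gi2 BM peak 1) and 18.6% (gi2 MB). Linear ratios gave 26.9% (gi1 Mo17), 17.8% (gi1 BM peak 2), 0.666% (gi2 Mo17) and 22.9% (gi2 MB). The gi1 Mo17 peak was in the top 26.8% of peaks overlapping their gene, 25.7% of those with a highest value of at least 1.5, and 25.8% of genes. By genes, gi1 BM was in the top 30.4% and gi2 BM in the top 12.6%. Among peaks highest at ZT9 the places were 45.9% (gi1 Mo17), 59.0% (gi1 BM peak 2), 2.85% (gi2 Mo17), 47.3% and 26.1% (gi2 BM peaks 1 and 2) and 39.9% (gi2 MB). Gi1 BM peak 1 has no value there, nor gi2 MB among highest values of at least 1.5. Among peaks of like width they were 4.84% (gi1 Mo17), 4.64% (gi1 BM peak 2), 0.125% (gi2 Mo17), 18.2% and 11.7% (gi2 BM peaks 1 and 2) and 9.41% (gi2 MB). A reciprocal overlap of 50% left 0 of the 2 shared pairs at gi1 and 0 of 1 at gi2. Of the 5 genes most like each, Pearson correlation kept 3 for gi1, and uncentred distances kept 1 for gi1 and 1 for gi2.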
